A study of Mus musculus with 8 samples.

Results

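The miR-200 family is a set of 5 mature microRNAs (miRNAs) whose hairpins lie in a pair of genomic clusters: mmu-miR-200b-3p, mmu-miR-200a-3p and mmu-miR-429-3p from one, mmu-miR-200c-3p and mmu-miR-141-3p from the other (mmu marks mouse and is left out below). Its members were chosen by name, and all 5 were among the 1881 mouse miRNAs on the array, whether detected or not. The family was taken up because earlier results of these same arrays showed some of its members lower in medium of mutant cells, so its signals, fitted differences and calls are given below as a description and support nothing beyond it. The samples were culture medium from transwell co-cultures of primary mouse myocytes, in which cells on an insert and cells in the bottom chamber exchange soluble and small secreted material through pores of 0.4 µm. Cells came from the hind limb muscle of newborn pups (1 to 3 days old), and medium was collected at 2 days in vitro, per the labels' protocols. Every group carried a human SOD1 transgene. The wild-type (WT) cells came from mice of the strain that overexpresses normal human SOD1, and the G93A cells from mice that overexpress its G93A mutant, a model of amyotrophic lateral sclerosis, so no group was free of human SOD1. Written as bottom chamber/insert, there were 2 WT/WT, 3 G93A/WT and 3 G93A/G93A samples, with 1 array per sample. The bottom chamber was seeded with 2.5 and the insert with 1.5 (both in 1e5 cells), and all samples are labelled male. Samples are labelled as biological replicates, with no litter or culture day named.

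A miRNA is cut from one arm of an RNA hairpin (5p or 3p) and directs silencing of messenger RNAs that pair with its seed, bases 2 to 8 from the 5′ end. The miR-200 family is abundant in epithelia, where it represses the transcription factors ZEB1 and ZEB2 and so keeps E-cadherin expressed, and ZEB proteins in turn repress both miR-200 clusters. Skeletal muscle cells are mesodermal and are not known as a rich source of these miRNAs.

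The sequences show how the members divide. All 5 members and all 5 opposite arms matched RefSeq entries (build GRCm38.p6). The mature members are printed 5′ to 3′ with the seed in capitals, because the seed sorts the members into the same classes as detection did.
mmu-miR-200b-3p: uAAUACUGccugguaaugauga
mmu-miR-200c-3p: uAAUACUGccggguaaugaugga
mmu-miR-429-3p: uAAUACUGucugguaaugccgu
mmu-miR-200a-3p: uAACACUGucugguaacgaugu
mmu-miR-141-3p: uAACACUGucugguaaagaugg
The first 3 share the seed AAUACUG and the last 2 the seed AACACUG. No other mature mouse miRNA in the RefSeq table has either seed. Counted from the 5′ end with the first-named miRNA's base first, the 1 seed difference between miR-200b-3p and miR-200a-3p was U4C, and it was the same substitution for every pair taken across the classes. Outside the seed the members remained close. miR-200b-3p and miR-200c-3p were identical at 20 of 22 positions (U11G and A22G), as were miR-200a-3p and miR-141-3p (C17A and U22G), although each of these pairs joins members of different clusters. Within the class with seed AAUACUG, miR-429-3p was farther off, at 18 of 22 positions identical to miR-200b-3p. The design sequences of the array's probes were not used here, so how well a probe separates such near neighbours was not measured.

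In GRCm38.p6 the Mir200b, Mir200a and Mir429 hairpins lie on the minus strand of chromosome 4 within chr4:156053905-156055750, a span of 1846 bases, in an annotated long noncoding RNA gene (Gm13648). The nearest other annotated gene towards lower coordinates was Ttll10, 3087 bases away. Mir200c and Mir141 lie on the minus strand of chromosome 6 within chr6:124717914-124718390, a span of 477 bases between Phb2 and Ptpn6, and overlap no other annotated gene. Each cluster therefore holds hairpins of both seed classes.

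Across the 8 arrays, 450 to 563 mouse miRNAs were detected per array and total signals lay between 115122 units (WT/WT 1) and 202908 (G93A/WT 2). All G93A/WT arrays lay in row 1 of the single slide with WT/WT 1, and all G93A/G93A arrays in row 2 with WT/WT 2. Of the 6 muscle-enriched miRNAs listed (miR-1a-3p, miR-133a-3p, miR-133b-3p, miR-206-3p, miR-499-5p and miR-208b-3p), 4 were detected on all 8 arrays, miR-499-5p on 1 and miR-208b-3p on none. Their summed scaled signal was 4522 to 5194 units in WT/WT, 4341 to 5258 in G93A/WT and 4094 to 5063 in G93A/G93A, so the labelled cell type had its main miRNAs in every group at overlapping levels. Signals below are scaled so that each array has the same 75th percentile over the 423 miRNAs detected everywhere. A miRNA the scanner software did not detect is listed at 0.1 in the files and has no measured level.

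The 3 members with seed AAUACUG were present in the medium of every co-culture that held WT cells and were not detected when both chambers held G93A cells. The 2 members with seed AACACUG were detected nowhere. Thus 3 of 5 members were detected on each WT/WT and each G93A/WT array and 0 of 5 on each G93A/G93A array. The members' detected signals were low, at 3.19 to 6.92 times the scanner software's own error, and on every array the flag marked as detected as many miRNAs as had a signal above 3 times that error.

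**Figure D1:**
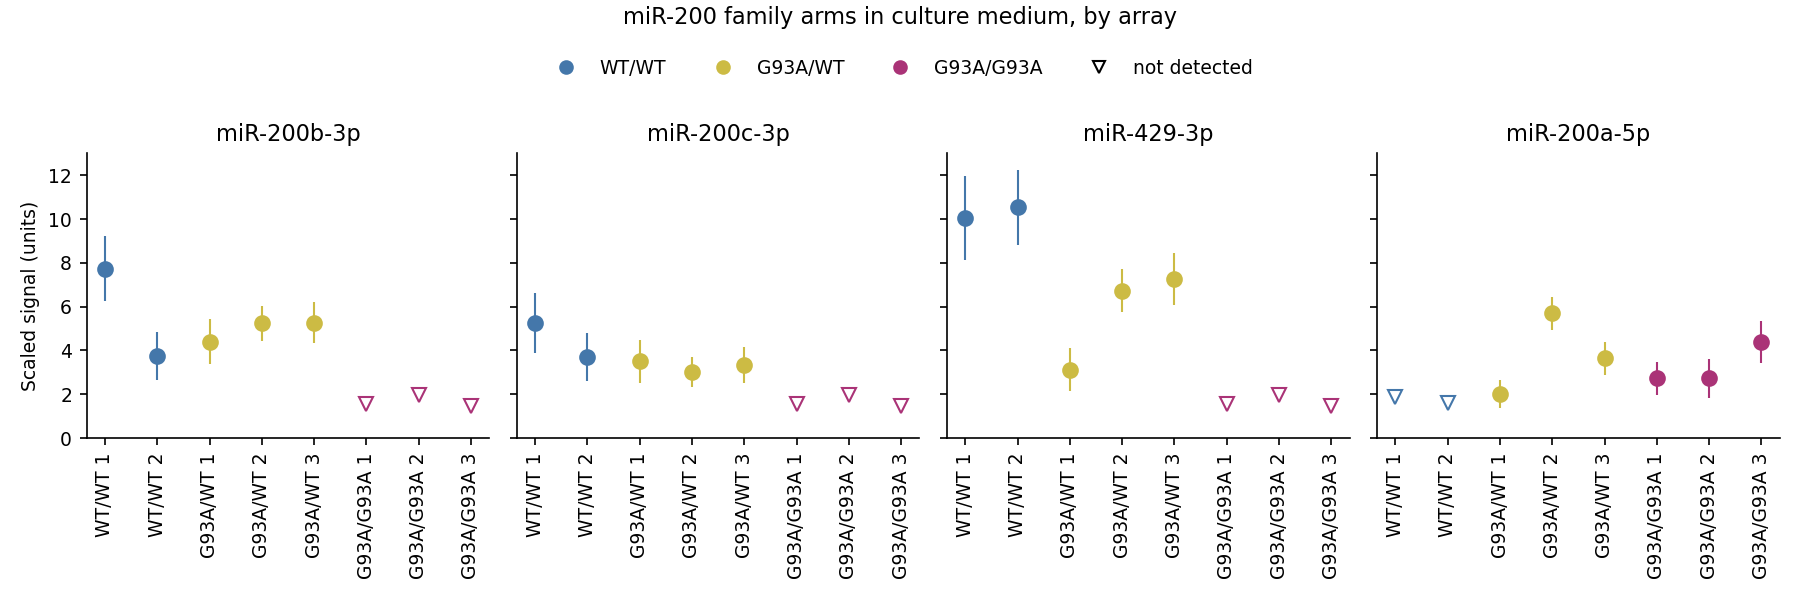
Scaled signal in units (vertical axis) of miR-200b-3p, miR-200c-3p, miR-429-3p and miR-200a-5p on each of the 8 arrays (horizontal axis), coloured by group. Bars are the scanner software's error of that array's signal, and open triangles stand at the lowest detected signal of an array on which the miRNA was not detected: the first 3 miRNAs have triangles on all G93A/G93A arrays, and miR-200a-5p has them on both WT/WT arrays.

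mmu-miR-429-3p, the last hairpin of the chromosome 4 cluster in the direction of transcription, had scaled signals of 10.1 and 10.5 units on WT/WT 1 and 2. On G93A/WT 1, 2 and 3 it stood at 3.12, 6.74 and 7.28 units, and on the 3 G93A/G93A arrays it was not detected. Both WT/WT arrays were above all G93A/WT arrays, and G93A/WT 1 was low beside its 2 partners. On the log2 scale the means were 3.36 ± 0.05 in WT/WT (SD, n = 2) and 2.42 ± 0.68 in G93A/WT (SD, n = 3).

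mmu-miR-200b-3p, the first hairpin of that cluster, had scaled signals of 7.74 and 3.76 units on the WT/WT arrays. It stood at 4.40, 5.23 and 5.28 units on the G93A/WT arrays and was undetected on all G93A/G93A arrays. Here the WT/WT arrays lay on either side of all 3 G93A/WT arrays, so these groups overlapped. The log2 means were 2.43 ± 0.74 in WT/WT (SD, n = 2) and 2.31 ± 0.15 in G93A/WT (SD, n = 3).

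mmu-miR-200c-3p, from the chromosome 6 cluster, had scaled signals of 5.27 and 3.70 units on WT/WT 1 and 2, of 3.50, 3.02 and 3.33 units on G93A/WT 1 to 3, and no detected signal on G93A/G93A arrays. The WT/WT arrays were both above the G93A/WT arrays, by a small margin for WT/WT 2. Its log2 means were 2.14 ± 0.36 in WT/WT (SD, n = 2) and 1.71 ± 0.11 in G93A/WT (SD, n = 3).

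For the comparison of pure mutant with pure wild-type medium, undetected arrays were set to a floor of 1.52 units (log2 0.60) and limma was fitted over the 538 miRNAs detected on at least 2 arrays. The fitted log2 differences, G93A/G93A minus WT/WT, were −2.76 ± 0.34 for miR-429-3p, −1.83 ± 0.28 for miR-200b-3p and −1.54 ± 0.16 for miR-200c-3p (SE), beside a median of −0.01 over all tested miRNAs. These values depend on the floor, and floored arrays add no spread to the SE. Set against the lowest detected signals of the G93A/G93A arrays, WT/WT signals stood 6.23-fold higher for miR-429-3p. The ratios were 3.26-fold for miR-200b-3p and 2.67-fold for miR-200c-3p. These ratios are not lower limits of the difference. Detection is judged against each signal's own error, and the members' detected raw signals had errors of 0.947 to 1.64 units. The lowest detected raw signals on G93A/G93A arrays were 1.34 to 1.52 units. A member under 3 times its error could thus stay undetected above those signals.

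All 3 tested members were called lower at an adjusted p of 0.05 (limma, Benjamini-Hochberg over 538 miRNAs), where 4.83% of tested miRNAs were called lower. All 3 also had non-overlapping groups on the lower side, as did 22.7% of tested miRNAs. This contrast led to the choice of the family, and the other 2 members could not be tested, so the counts describe the members and support nothing further. With a block for slide row the count of called members was 2, and miR-429-3p did not pass. The share of all tested miRNAs called in that fit is not set beside this count. With single arrays left out, the fitted difference ran from −2.78 to −2.74 for miR-429-3p. It ran from −2.38 to −1.30 for miR-200b-3p and from −1.83 to −1.27 for miR-200c-3p. Within row 2 alone, WT/WT 2 stands against the 3 G93A/G93A arrays. There the ratios to the lowest detected signals were 6.38-fold for miR-429-3p, 2.28-fold for miR-200b-3p and 2.24-fold for miR-200c-3p, again not lower limits. The lowest detected scaled signals were 1.48 to 1.97 units on the G93A/G93A arrays and 1.59 to 1.88 on the WT/WT arrays. These belong to the faintest miRNA of each array and not to the members.

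**Figure D2:**
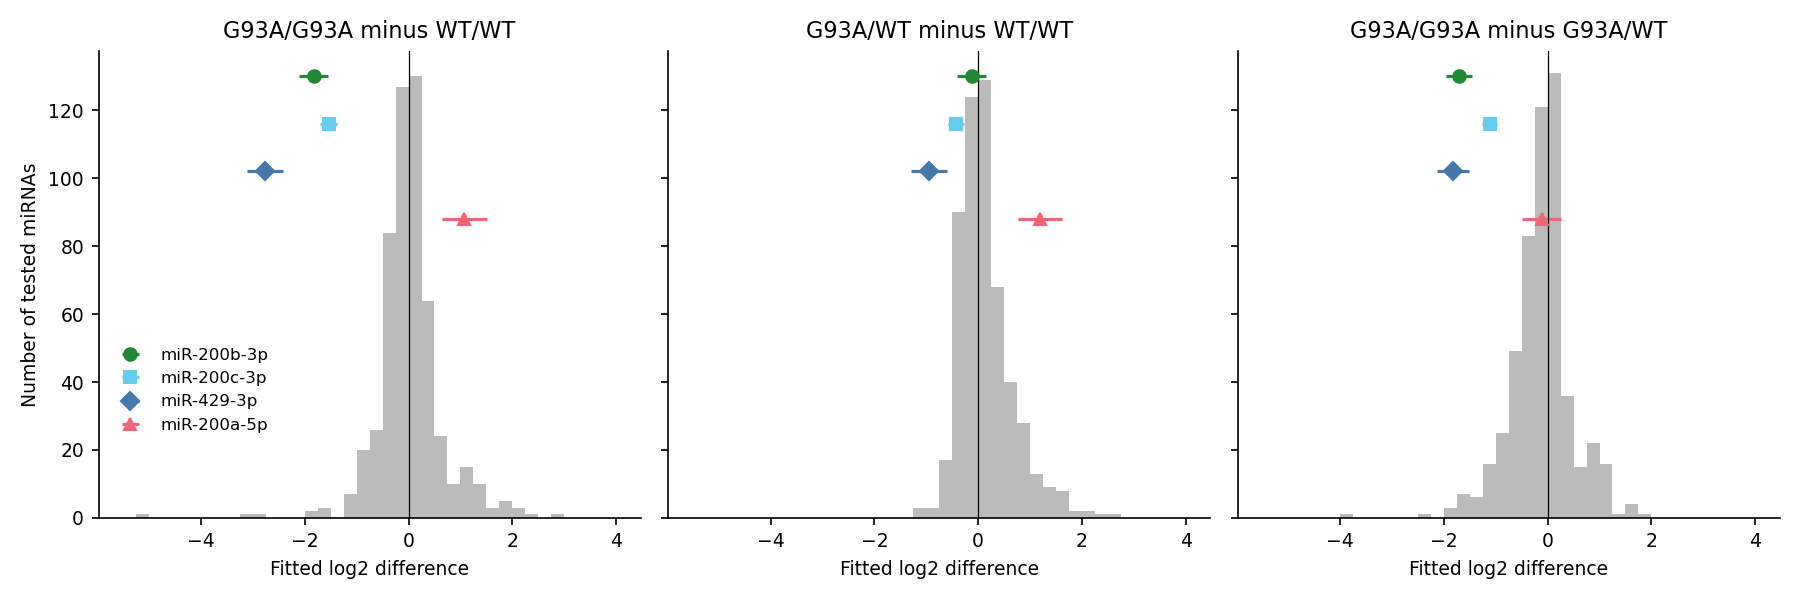
Fitted log2 differences (horizontal axis) of the 3 detected members and miR-200a-5p, with SE bars, over histograms of all 538 tested miRNAs (vertical axis, number of miRNAs), for the 3 comparisons; the height of the coloured symbols has no meaning. The 3 members lie between −2.76 and −1.54 in G93A/G93A minus WT/WT, while miR-200a-5p lies at 1.08.

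The comparison with G93A/WT medium shares the G93A/G93A arrays with the one above. Here the fitted log2 differences, G93A/G93A minus G93A/WT, were −1.82 ± 0.31 for miR-429-3p, −1.71 ± 0.25 for miR-200b-3p and −1.11 ± 0.14 for miR-200c-3p (SE), beside a median of −0.10 over all tested miRNAs. The ratios of G93A/WT signals to the lowest detected signals of G93A/G93A arrays were 3.24-fold, 3.00-fold and 1.98-fold in the same order. They too are not lower limits of the difference. All 3 were called lower, where 5.2% of tested miRNAs were, and all 3 had non-overlapping groups, as did 19.1%. These counts too describe members chosen for low signals on the same G93A/G93A arrays, all of which stood at the floor, and nothing is read from them. The lowest detected scaled signals were 0.879 to 1.48 units on G93A/WT arrays and 1.48 to 1.97 on G93A/G93A arrays. The G93A/WT arrays detected 497 to 563 miRNAs and the G93A/G93A arrays 451 to 483. What part this difference in reach had was not tested. No slide row held both groups. With the row as a block, 0 of the 3 members and 0 of all tested miRNAs passed (limma; 73 miRNAs had an unadjusted p under 0.05 in that fit), and the differences were −1.89, −0.67 and −0.60 for miR-429-3p, miR-200b-3p and miR-200c-3p. The fit with the row links these groups only through 1 WT/WT array in each row.

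In mixed medium, G93A/WT, the members stood between the pure cultures or near WT/WT. The insert supplied WT cells as 37.5% of those seeded. miR-429-3p averaged 55.4% ± 21.9 of its WT/WT mean, miR-200c-3p 73.3% ± 5.42 and miR-200b-3p 86.5% ± 8.57 (SD over 3 arrays, scaled signals). The fitted log2 differences, G93A/WT minus WT/WT, were −0.95 ± 0.34, −0.43 ± 0.16 and −0.12 ± 0.28 (SE), and none of the 3 tested members was called in limma, where 0.743% of tested miRNAs were called lower. Of the 3, miR-429-3p and miR-200c-3p had an unadjusted p under 0.05 in limma, as did 132 of all 538 tested miRNAs. miR-429-3p and miR-200c-3p had non-overlapping groups on the lower side, as did 26% of tested miRNAs.

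The percentages of miR-200b-3p and miR-200c-3p rested on which WT/WT array was the yardstick, while that of miR-429-3p moved little. Relative to WT/WT 1, which shares the slide row of the G93A/WT arrays, they were 64.2% for miR-200b-3p, 62.4% for miR-200c-3p and 56.8% for miR-429-3p, and thus close to one another. Relative to WT/WT 2 alone they were 132%, 88.8% and 54.1%. Scale factors were 0.593 to 0.933 for G93A/WT, whose arrays had the highest total signals, against 1.13 to 1.44 for WT/WT. Without scaling, miR-200b-3p and miR-200c-3p were higher in mixed medium (157% and 127%) and miR-429-3p stood at 99.4%, but there the median of all tested miRNAs was higher by a log2 difference of 0.79. Without G93A/WT 1, on which miR-429-3p was lowest, the log2 difference of miR-429-3p was −0.56. In that fit 1 of the 3 members was called in limma. The share of all tested miRNAs called in it is not set beside this count, so nothing is read from it.

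**Figure D3:**
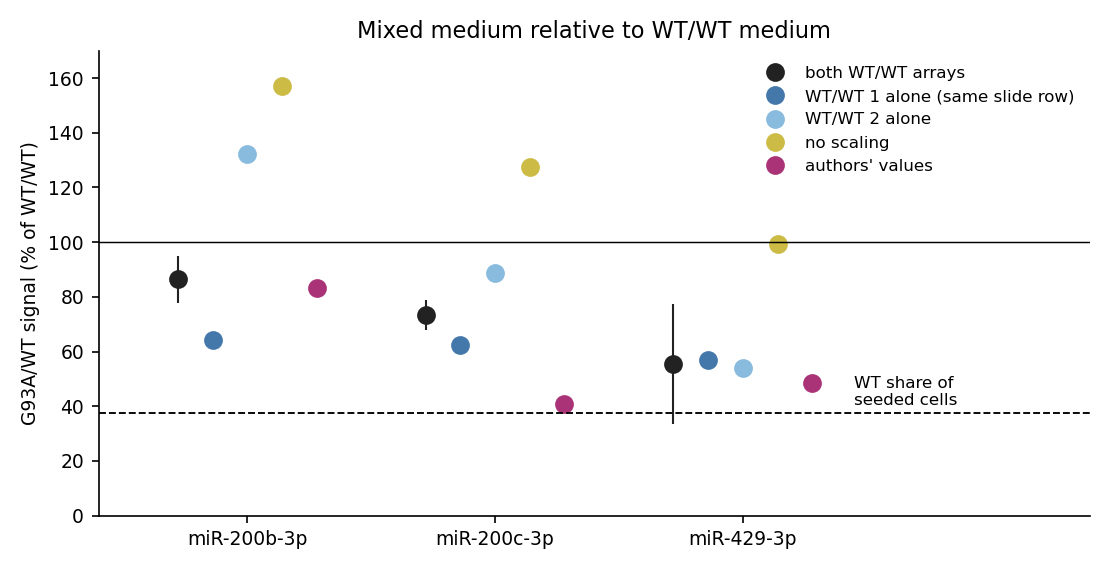
Mean G93A/WT signal as a percent of WT/WT (vertical axis) for the 3 detected members (horizontal axis), against both WT/WT arrays, against each one alone, without scaling and in the authors' processed values; bars are the SD over 3 G93A/WT arrays, the solid line marks equality with WT/WT and the dashed line the 37.5% of seeded cells that were WT. The points for miR-429-3p lie between 48.3% and 56.8% except without scaling, while those for miR-200b-3p run from 64.2% to 157%.

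The authors' deposited table of processed values, intensities whose normalization is not stated, also had the 3 detected members lowest in pure mutant medium. There miR-200b-3p stood at 4.53 and 3.79 in WT/WT, at 6.0, 1.28 and 3.10 in G93A/WT, and at 0.199 to 0.262 in G93A/G93A. miR-429-3p stood at 5.30 and 10.2 in WT/WT and at 4.53, 2.06 and 4.66 in G93A/WT. miR-200c-3p stood at 3.71, 0.513 and 1.45 in G93A/WT. In that table G93A/WT 2 was the lowest of its group for all 3 members. In the scaled signals it was the lowest for miR-200c-3p, whose G93A/WT arrays fell in the same order in both versions, while G93A/WT 1 was the lowest for miR-200b-3p and miR-429-3p.

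The 2 remaining members, mmu-miR-200a-3p and mmu-miR-141-3p, were detected on 0 of 8 arrays. They share their state with 68.8% of the mouse miRNAs on the array, which were detected nowhere. No firm bound can be given, since detection is judged against each signal's own error. The lowest detected scaled signals were 0.879 to 1.97 units over the arrays and belong to the faintest miRNA of each. Raw errors of the detected members were 0.947 to 1.64 units, so a member under 3 times such an error could stay undetected above the lowest detected signal. The hairpins of miR-200a-3p and miR-141-3p sit in the same clusters as detected members. Mir200a lies between Mir200b and Mir429 with gaps of 695 and 908 bases, and Mir141 has 336 bases between it and Mir200c. Why members of a cluster differed in detection was not tested.

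Of the opposite (5p) arms of the hairpins, 3 of 5 were detected on no array, and miR-200a-5p had a detection pattern unlike that of any member. The Mir200a hairpin is printed 5′ to 3′ with both mature arms in capitals, the 5p arm first, because the arm it is known for was undetected and the other was not (chr4:156054896-156054985, minus strand, GRCm38.p6).
Mir200a: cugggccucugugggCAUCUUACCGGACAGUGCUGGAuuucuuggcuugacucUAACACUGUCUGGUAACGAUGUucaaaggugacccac
miR-200a-5p was detected on all 3 G93A/WT and all 3 G93A/G93A arrays and on neither WT/WT array. Its scaled signals were 2.01, 5.69 and 3.65 units on G93A/WT 1, 2 and 3 and 2.73, 2.73 and 4.40 on G93A/G93A 1, 2 and 3. These signals were 3.05 to 7.44 times their error, with G93A/G93A 2 and G93A/WT 1 (3.12) nearest to the limit of 3, and the groups overlapped each other. Of all mouse miRNAs on the array, 4 had this pattern of detection, or 0.213%.

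Relative to the lowest detected signals of the WT/WT arrays, miR-200a-5p was 2.01-fold higher in G93A/WT and 1.85-fold higher in G93A/G93A. These ratios are not lower limits of the difference. The fitted log2 differences against WT/WT were 1.19 ± 0.43 and 1.08 ± 0.43 (SE), and neither passed in limma (adjusted p = 0.15 and 0.162), where 3.16% and 3.72% of tested miRNAs were called higher. Non-overlapping groups on the higher side were found for 19.3% and 18% of tested miRNAs in these comparisons, which share the WT/WT arrays. Over the alternatives the limma adjusted p ran from 0.0225, with the authors' processed values, to 1 between G93A/G93A and WT/WT, and from 0.0426 to 0.602 between G93A/WT and WT/WT. Since both WT/WT arrays lacked a detected signal, each such p depends on the value set for an undetected miRNA. In the authors' deposited table miR-200a-5p was higher in G93A/G93A (3.90, 4.55 and 6.08) than in G93A/WT (1.35, 2.50 and 0.578). These groups did not overlap there, while in the scaled signals they did. The low end of that table also differed between the groups. Its lowest value of a detected miRNA was 0.4997, 0.158 and 0.141 on G93A/WT 1, 2 and 3. On G93A/G93A 1, 2 and 3 it was 2.56, 2.73 and 0.978. What part this had in the order of the groups was not tested. No share over all miRNAs is set beside the lack of overlap, so nothing is read from it. G93A/WT 1 was the lowest of its group in the scaled signals. Without it, the fitted difference of miR-200a-5p between G93A/WT and WT/WT was 1.56 against the same floor (limma adjusted p = 0.048).

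Of the other 5p arms, miR-200b-5p was detected on G93A/WT 1 and 2 alone, at 1.66 and 1.23 scaled units. The lowest detected signals were 1.59 to 1.88 units on WT/WT arrays and 1.48 to 1.97 on G93A/G93A arrays. The signal of 1.23 units lay below all of these, and that of 1.66 lay within both ranges. What part this had in where miR-200b-5p was detected was not tested. miR-429-5p, miR-200c-5p and miR-141-5p were detected on no array. The 2 detected 5p arms are the ones that share the seed AUCUUAC.
mmu-miR-200a-5p: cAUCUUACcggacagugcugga
mmu-miR-200b-5p: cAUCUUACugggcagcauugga
These are shown because they share this seed, and no other mature mouse miRNA in the RefSeq table has it. They did not share a pattern of detection, with miR-200a-5p detected on 6 arrays and miR-200b-5p on 2. Whether a seed bears on detection was not tested. Only Mir200b had both of its arms detected, both on G93A/WT 1 and 2. None of the 5p arms was detected in WT/WT medium, where 3 of the 5 3p arms were. Over the 723 hairpin names with both arms on the array, 53 had both arms detected on some array, 224 had only the 5p arm, 101 only the 3p arm and 345 neither.

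**Figure D4:**
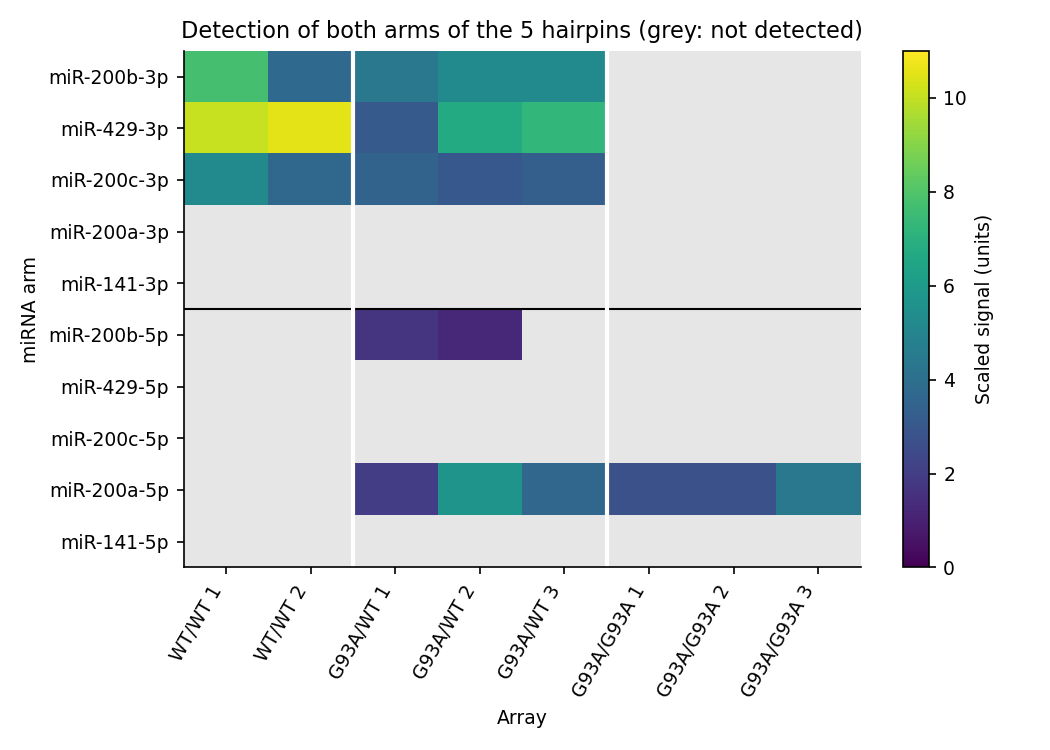
Scaled signal in units (colour) of the 3p arms (upper 5 rows) and 5p arms (lower 5 rows) of the 5 hairpins on each array (horizontal axis), grey where the arm was not detected and with white lines between the groups. The 3 members detected fill the WT/WT and G93A/WT columns and leave the G93A/G93A columns empty, and miR-200a-5p fills the G93A/WT and G93A/G93A columns and leaves the WT/WT columns empty.

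Other miRNAs known from epithelia were read from a list of 13, drawn up with earlier results of these arrays known. Of these, 4 were tested, and 2 of the 4 were called lower in G93A/G93A against WT/WT (4.83% of all tested miRNAs were). miR-205-5p, abundant in stratified epithelia, had scaled signals of 127 and 109 units in WT/WT, of 46.5, 62.4 and 51.6 units in G93A/WT, and of 5.36 and 4.74 units on G93A/G93A 2 and 3. It was not detected on G93A/G93A 1. miR-203-3p, which promotes differentiation of keratinocytes, stood at 15.3 and 10.6 units in WT/WT, at 3.66, 7.58 and 5.70 in G93A/WT, and was undetected in G93A/G93A. Both had their highest arrays in WT/WT and their lowest in G93A/G93A, with G93A/WT between and no overlap. On the lower side, 22.7% of tested miRNAs had non-overlapping groups in G93A/G93A minus WT/WT. The share was 26% in G93A/WT minus WT/WT and 19.1% in G93A/G93A minus G93A/WT. In G93A/WT minus WT/WT neither miR-205-5p nor miR-203-3p was called (limma adjusted p = 0.219 and 0.0611).

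miR-31-5p, also known from skin, had a log2 difference of −0.80 ± 0.42 (SE) between G93A/G93A and WT/WT and did not pass. miR-34c-5p, of ciliated epithelia, was detected on 2 G93A/WT arrays only. The other 9, among them miR-375-3p, miR-192-5p, miR-194-5p and the miR-183, miR-96 and miR-182 cluster, were detected on no array. The list's median log2 difference was −1.94 in this comparison (4 tested miRNAs), −0.64 between G93A/WT and WT/WT and −1.25 between G93A/G93A and G93A/WT, where 0 and 2 were called lower (limma; 1 and 3 had an unadjusted p under 0.05). Over all tested miRNAs the medians in these 3 comparisons were −0.01, 0.04 and −0.10, and 0.743% and 5.2% were called lower in the last 2. In those 2 comparisons, 132 and 173 of the 538 tested miRNAs had an unadjusted p under 0.05 in limma. The list's summed scaled signal, with nothing added for undetected miRNAs, was 125 to 147 units in WT/WT, 54.2 to 77.6 in G93A/WT and 4.45 to 8.26 in G93A/G93A. Most of it in WT/WT was miR-205-5p, at 127 and 109 units. The summed signal of the family was 18.0 to 23.1 units in WT/WT and 11.0 to 15.9 in G93A/WT, with no member detected in G93A/G93A. The part that epithelial cells in the cultures had in these values was not tested, and in medium fewer cells of a type and less RNA released per cell cannot be told apart.

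Lists of markers of other cells the cultures could hold were read in the same way. Of 6 mesenchymal or fibroblast miRNAs, 5 were tested and 1, miR-199a-5p, was called lower in pure mutant medium (−0.85 ± 0.17 against WT/WT, SE, limma adjusted p = 0.0291), where 4.83% of all tested miRNAs were. All 5 lay below zero in that comparison (median −0.33, against −0.01 over all tested miRNAs, 50.9% of which lay below zero). They also did in G93A/G93A minus G93A/WT (median −0.47, against −0.10, with 58.0% of all tested miRNAs below zero). There none passed in limma, and 4 had an unadjusted p under 0.05, as did 173 of all 538 tested miRNAs. The list's summed signal was 669 to 677 units in WT/WT, 608 to 775 in G93A/WT and 464 to 603 in G93A/G93A, and miR-145a-5p was detected nowhere. None of the 4 tested erythroid or serum miRNAs was called in any comparison in limma (0 at an adjusted p of 0.05). At an unadjusted p under 0.05 there was 1, in G93A/WT against WT/WT, where 132 of all 538 tested miRNAs had one. The list's sums were 2268 to 2344 units in WT/WT, 2386 to 2657 in G93A/WT and 2048 to 2695 in G93A/G93A, and miR-144-3p was detected nowhere. The medium held foetal bovine or horse serum, and a probe reads a miRNA of the same sequence from any species. Cell-free medium was not analysed here. Of 4 leukocyte miRNAs only miR-223-3p was detected. It was called higher in pure mutant medium than in WT/WT, by 0.52 ± 0.12 (SE, limma adjusted p = 0.0433), where 3.72% of all tested miRNAs were. The tested endothelial miRNA, miR-126a-3p, was not called in any comparison. It stood at a log2 mean of 6.83 in WT/WT, 6.69 in G93A/WT and 6.60 in G93A/G93A.

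A list of 10 miRNAs that act beside the family in the transition between epithelial and mesenchymal states, or that rise in it, had 7 tested members. Its only call was miR-205-5p, lower in G93A/G93A against both other groups. Of all tested miRNAs, 4.83% were called lower against WT/WT and 5.2% against G93A/WT. All 7 lay below zero in G93A/G93A minus WT/WT (median −0.50, against −0.01 over all tested miRNAs, 50.9% of which lay below zero). miR-21a-5p, known to rise in that transition, stood at a log2 mean of 9.37 in WT/WT, 9.49 in G93A/WT and 8.86 in G93A/G93A, and its difference of −0.50 ± 0.22 (SE) did not pass. miR-34a-5p, a p53 target that represses mesenchymal regulators, differed by −0.80 ± 0.25 (SE) and did not pass either. miR-101a-3p, miR-138-5p and miR-222-3p were detected on no array.

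The pattern of the detected members was shared by few other miRNAs. Of 1881 mouse miRNAs, 7 were detected on every WT/WT and G93A/WT array and on no G93A/G93A array, or 0.372%, and 3 of those 7 were the members. The others were miR-203-3p, miR-181a-5p, miR-17-3p and miR-212-3p. Likeness in level was measured over the 8 arrays as the root mean square difference in log2 signal from the mean profile of the 3 members, each profile centred on its own mean. It was smallest for miR-181a-5p (0.25), miR-17-3p (0.27), miR-212-3p (0.31), miR-203-3p (0.44) and miR-324-5p (0.47), and for the members themselves it was 0.21 to 0.38. Of these 5, miR-324-5p alone was detected on all 8 arrays, with log2 means of 3.61, 3.18 and 2.51 in WT/WT, G93A/WT and G93A/G93A. The first 4 share the floor on the same 3 arrays, which brings their profiles together.

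**Figure D5:**
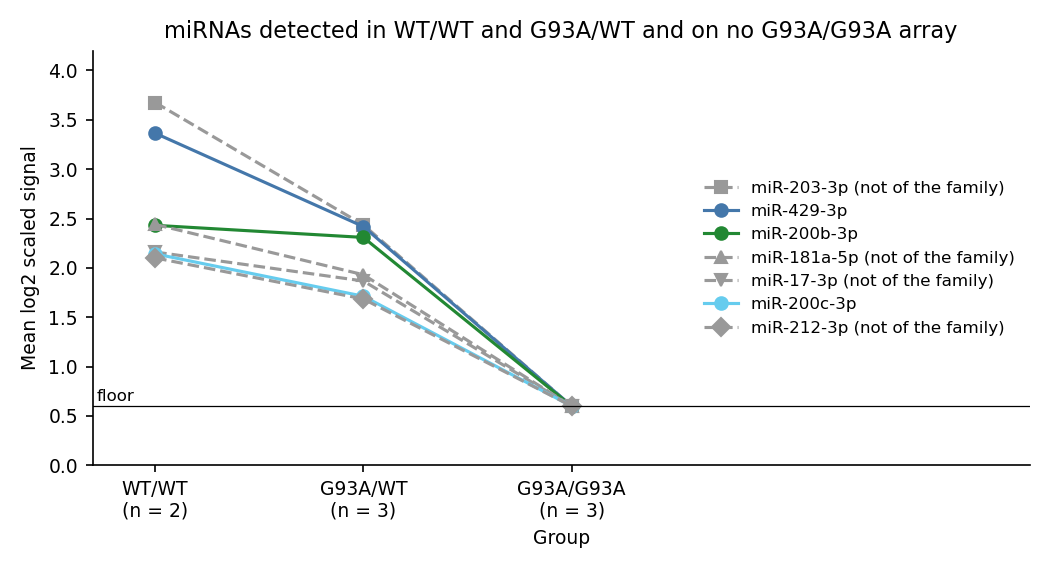
Mean log2 scaled signal (vertical axis) in the 3 groups (horizontal axis) of the 7 miRNAs detected on every WT/WT and G93A/WT array and on no G93A/G93A array; solid lines with circles are the 3 members, dashed lines the other 4, no error bars are drawn, and the thin line is the floor at 0.60. All 7 stand at the floor in G93A/G93A, and each is higher in WT/WT than in G93A/WT, by as little as 0.12 for miR-200b-3p.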

How the data were processed

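Culture medium of 8 co-cultures was hybridised to 1-colour (Cy3) mouse miRNA arrays, 150 ng of miRNA preparation each. Per the file headers, each deposited file holds linear intensity values summed by gene, with an error estimate and a flag for detection. The background method: not given in the sources used here. The authors' deposited table of processed values is also an intensity and served as an alternative. Each array was scaled to a common 75th percentile over the 423 miRNAs detected on all arrays, floored at 1.52 units and log2 transformed. The 538 miRNAs detected on at least 2 arrays were fitted with limma 3.58.1 in R 4.3.3 (3 groups sharing 1 spread, no covariate, Benjamini-Hochberg, threshold 0.05), and the script was checked on simulated data. An SE is limma's moderated standard error. A ratio to the lowest detected signals compares a group in which a miRNA was detected with the other group's arrays, as means of log2 values. It is not a lower limit, since detection depends on each signal's own error. Precision is limited by having 2 or 3 arrays in a group, and p-values measure only the spread between these samples. Members and lists were chosen with earlier results of these data known. Named beyond the family were the tested epithelial miRNAs, the brightest or called of other lists, and the 5 most alike profiles. Sequences and coordinates are RefSeq's (GRCm38.p6), matched by name. Alternatives covered scaling, floor, filter, blocks, the prior, and leaving out each array.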

Additional observations from a re-analysis of the deposited data

How the results depend on the processing

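Between G93A/G93A and WT/WT the count of called members, 3 of 3, was 1 with a floor of 5 units and 1 with no filter on detection, and 2 to 3 when single arrays were left out. With the slide row blocked it was 2, and likewise with the replicate block (8 lower and 2 higher calls among all miRNAs, against 26 and 20) and with only the 2 groups fitted, and 3 in the other alternatives. Between G93A/G93A and G93A/WT it went from 3 to 1 with quantile normalization, 0 with a floor of 5, 1 with no filter, 0 with the slide row as a block, 2 with the authors' values, and 3 when any array was left out. Between G93A/WT and WT/WT it was 0, and 0 to 1 when arrays were left out. A floor of 5 lies above some signals of each detected member, and without a filter 1881 miRNAs were adjusted for. Higher and lower calls among all miRNAs, the background of these counts, also moved with the scaling: between G93A/G93A and WT/WT from 20 and 26 to 5 and 28 with median scaling and 7 and 7 without scaling, between G93A/WT and WT/WT from 17 and 4 to 16 and 11, 130 and 0, and 5 and 11 with quantile normalization, and between G93A/G93A and G93A/WT from 29 and 28 to 1 and 148 without scaling, 32 and 17 with quantile normalization and 35 and 10 with the authors' values. The fitted differences of the 3 members lay below zero in G93A/G93A minus WT/WT under all 22 alternatives, and in G93A/G93A minus G93A/WT under all but the floor of 5, where miR-200c-3p was at 0.

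In G93A/WT minus WT/WT, miR-200b-3p changed sign without scaling (0.65) and without WT/WT 1 (0.42, against −0.65 without WT/WT 2), and miR-200c-3p without scaling (0.34). Without scaling the median of all tested miRNAs was 0.79, against 0.04 in the main fit, and the cause of these sign changes was not tested. In G93A/G93A minus G93A/WT, miR-200a-5p changed sign with quantile normalization (0.27), with the authors' values (1.93) and without G93A/WT 2 (0.24, against −0.51 without G93A/WT 1), and the cause was not tested. As a percent of WT/WT, unscaled G93A/WT signals were 157, 127 and 99.4 for miR-200b-3p, miR-200c-3p and miR-429-3p, and miR-200c-3p was 40.8 with the authors' values. With single arrays left out the ranges were 64.1 to 135, 62.2 to 90.5 and 47.8 to 68.0. Counting detection as a signal above 3 times its error changed no count of detected members. Replicate numbers mark no shared litter or day in the labels, and the deviations of same-numbered arrays correlated at −0.35 to 0.21, so the replicate block is given here only. Scaling on the 75th percentile of all miRNAs was not run, because that percentile was an undetected miRNA on 3 arrays. Signals of 3.19 to 6.92 times their error limit the values of all 3 detected members.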
